A study of Mus musculus with 8 samples.

Results

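Expression of 10 genes of the Wnt pathway was followed in 4 mouse mammary carcinoma lines. They comprise 5 ligand genes (Wnt5a, Wnt7a, Wnt7b, Wnt9a and Wnt10a), 3 genes for secreted inhibitors (Notum, Sfrp1 and Dkk3) and 2 genes that the pathway is known to induce (Axin2 and Lef1). They were chosen by symbol, on the levels and differences already seen in these libraries, out of 53379 genes in the count files. Their values below are therefore a description without a test. Tests are given for other genes of the pathway, whose lists were also drawn up with earlier results of these data known.

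The lines 687g and Epcam hi came from tumours of MMTV-PyMT-Snail-IRES-YFP mice, a reporter model, and the lines pB3 and pB2 from tumours of MMTV-PyMT mice. All have the C57BL/6 background and the middle T oncogene of polyoma virus, placed in the mammary epithelium by the promoter of mouse mammary tumour virus. Cells grew untreated as adherent monolayers, and each line gave 2 libraries of messenger RNA. Nothing states whether replicates were separate cultures or whether a line is a single clone, so p-values measure the spread between these libraries only, and a difference between lines cannot be told apart from one between any 2 tumour isolates.

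Total counts ranged from 12442730 to 19149916 per library. Replicates differed by more than counting noise in every line, with a chi-square per degree of freedom of 62.4 in 687g, 39.4 in Epcam hi, 13.8 in pB3 and 14.7 in pB2. The keratin genes Krt8 and Krt18 of simple epithelium were detected at 94.1 CPM or more in every library, and the summed level of 6 epithelial markers spanned 1275 to 1416 CPM in 687g, 5628 to 5632 in Epcam hi, 2745 to 2931 in pB3 and 1308 to 1393 in pB2. In 687g the sum came from Krt8 and Krt18, with Epcam at 3.85 and 3.69 CPM, Cdh1 at 1.90 and 0.738 CPM, and Cldn7 and Krt14 under 1 CPM, so that 4 of the 6 exceeded 1 CPM there and 6 in each other line. CPM is the count scaled to a common library size. Of the 10 fibroblast markers, 3 exceeded 1 CPM in 687g, 1 in Epcam hi, 2 in pB3 and 3 in pB2, and their sum was 16.2 to 21.2, 2.46 to 2.88, 15.1 to 17.9 and 63.5 to 84.8 CPM in the same lines. Dpt had 0 counts throughout, and Dcn and Col1a2 had 2 counts or fewer per library. The 8 leukocyte markers summed to at most 3.74 CPM outside Epcam hi and to 14.3 and 36.2 CPM within it, nearly all of it Cd68, with Ptprc at or below 0.383 CPM. The 7 endothelial markers summed to at most 0.940 CPM outside pB2 and to 5.18 and 7.89 CPM within it, where Erg alone had 4.88 and 7.36 CPM and Cdh5, Kdr, Tie1, Tek and Emcn had 0 counts. Their part in the results was not tested.

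Wnt proteins are secreted ligands that carry a lipid, attached by the acyltransferase Porcn and shuttled to the cell surface by the carrier Wls. A ligand that engages a Frizzled receptor together with Lrp5 or Lrp6 stabilises beta-catenin, which enters the nucleus and activates genes with TCF and LEF factors, whereas other ligands act through Ror receptors without beta-catenin. Notum cuts the lipid off the ligand, Sfrp proteins bind ligands outside the cell, and Axin2 is widely used as a readout of beta-catenin activity. The family has a long history in the mammary gland, where mouse mammary tumour virus was found to activate Wnt1.

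Promoter sequences show the DNA at the start of members the results turn on. RefSeq windows (GRCm38.p6) were at hand for 4 of the 10 genes, of which Axin2, the target that was close to 0 in every line, and the ligand genes Wnt7a and Wnt9a, both highest in Epcam hi, are printed for the 250 bases before the start, 5′ to 3′ on the strand of the gene. Capitals mark CpG dinucleotides, which are the sites of DNA methylation.
Axin2, chr11:108920099-108920348, plus strand: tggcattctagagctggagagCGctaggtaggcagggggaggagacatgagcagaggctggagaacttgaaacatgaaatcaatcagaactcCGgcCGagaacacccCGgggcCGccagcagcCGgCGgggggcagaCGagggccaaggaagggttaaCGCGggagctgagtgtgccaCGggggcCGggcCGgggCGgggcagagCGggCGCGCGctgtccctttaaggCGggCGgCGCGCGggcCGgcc
Wnt7a, chr6:91411354-91411603, minus strand: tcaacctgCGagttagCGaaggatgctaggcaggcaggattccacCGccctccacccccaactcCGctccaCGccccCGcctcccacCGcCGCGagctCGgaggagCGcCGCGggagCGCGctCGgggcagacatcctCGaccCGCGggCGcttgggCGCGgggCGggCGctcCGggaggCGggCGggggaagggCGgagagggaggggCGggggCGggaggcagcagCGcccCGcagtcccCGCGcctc
Wnt9a, chr11:59306680-59306929, plus strand: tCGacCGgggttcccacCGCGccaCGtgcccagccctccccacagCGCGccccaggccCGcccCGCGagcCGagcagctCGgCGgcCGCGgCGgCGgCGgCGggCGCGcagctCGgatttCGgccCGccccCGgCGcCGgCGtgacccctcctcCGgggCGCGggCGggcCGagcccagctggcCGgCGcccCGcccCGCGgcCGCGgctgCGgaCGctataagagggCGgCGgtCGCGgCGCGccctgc
Over the 300 bases of the window, which run on past the start, Axin2 held 31 CpG, Wnt7a 42 and Wnt9a 58, against a median of 7 over 32851 windows of all genes. Windows with fewer CpG than these made up 89.4%, 97.0% and 99.9% of all windows. The TCF/LEF letters CTTTGAT or CTTTGAA, sought on both strands, occurred in none of the 3 windows, and occur in 3.73% and 5.14% of all windows. This says only that those letters are not in these stretches.

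Wnt5a, a ligand known mainly for signalling without beta-catenin, was high in 687g and pB3. It lies on chromosome 14 from 28504750 to 28527448 in GRCm38. Its level was 43.6 and 31.9 CPM in 687g, 0.632 and 1.04 CPM in Epcam hi, 44.1 and 47.7 CPM in pB3, and 0.148 and 0 CPM in pB2. The lines with much Wnt5a were far apart from the others, and the libraries of 687g lay just below those of pB3. In bulk RNA, fewer cells that express a gene and less RNA per cell cannot be told apart. From 28 counts in Epcam hi the level in 687g was 44.5-fold higher (95% counting interval 30.6 to 67.2). Here and below a counting interval covers counting error only, not the larger spread between replicates. In pB3 it was 745-fold higher than in pB2 (counting interval 206 to 6155), where the count was 2, both in 1 library.

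Wnt7a and Wnt7b encode closely related ligands, and both were highest in Epcam hi. Wnt7a, on chromosome 6 from 91363981 to 91411363, stood at 19.0 and 12.8 CPM in 687g, 172 and 174 CPM in Epcam hi, 12.2 and 11.9 CPM in pB3, and 0.222 and 0.159 CPM in pB2. Epcam hi thus stood alone at the top, pB2 alone at the bottom with 3 counts per library, and 687g and pB3 were neighbours that did not overlap (log2 fold change 0.40 ± 0.21, 687g over pB3; here and below ± after a log2 fold change is a standard error). Between Epcam hi and pB2 the ratio was 935-fold (counting interval 429 to 2549). The summed epithelial markers and Cd68 were also highest in Epcam hi, and their part in the level of Wnt7a was not tested. Wnt7b, on chromosome 15 from 85535437 to 85582473, had another order, with 4.35 and 3.96 CPM in 687g, 287 and 258 CPM in Epcam hi, 164 and 161 CPM in pB3, and 18.5 and 24.0 CPM in pB2. All 4 lines were separate. Wnt7b was 39.0-fold lower in 687g than in pB3 and 64.95-fold lower in 687g than in Epcam hi, so that 687g and pB3, alike in Wnt5a, were far apart in Wnt7b.

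Wnt9a and Wnt10a encode further ligands and were likewise higher in Epcam hi and pB3, at lower levels. Wnt9a, on chromosome 11 from 59306928 to 59333552, had 0.669 and 0.201 CPM in 687g, 10.6 and 6.94 CPM in Epcam hi, 6.85 and 5.95 CPM in pB3, and 0.592 and 1.11 CPM in pB2. Its level in 687g overlapped that in pB2, and the Epcam hi libraries lay above pB3 by a narrow margin, 6.94 against 6.85 CPM. Wnt10a, on chromosome 1 from 74791516 to 74804179, counted 0 and 1 in 687g, 43 and 41 in Epcam hi, 32 and 33 in pB3, and 0 and 0 in pB2. Both ligands were therefore detected mainly in Epcam hi and pB3, where Wnt10a reached 2.63 ± 0.551 and 2.14 ± 0.00968 CPM (SD, n = 2). Against a floor of 3 counts over both libraries of pB2, Wnt10a was at least 27.9-fold higher in Epcam hi and at least 23.1-fold higher in pB3.

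**Figure D1:**
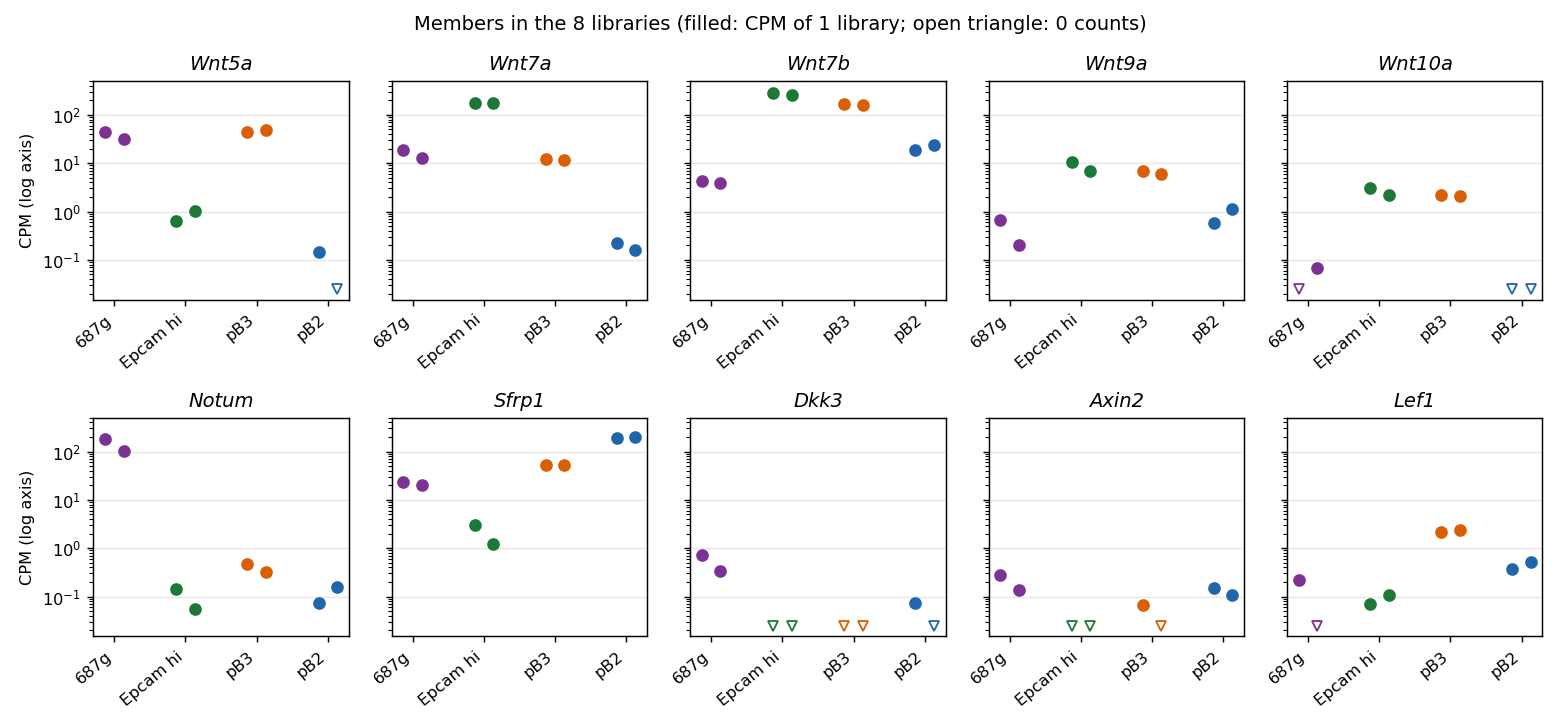
CPM of the 10 genes in each of the 8 libraries on a log axis, with 2 points per line and an open triangle where a library had 0 counts. Wnt5a is high in 687g and pB3, Wnt7a in Epcam hi, Wnt7b in Epcam hi and pB3, Notum in 687g and Sfrp1 in pB2, while Dkk3 and Axin2 stay under 1 CPM in all libraries.

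Per kilobase of exon, which allows levels of different genes to be compared, each line had its own ligand makeup. Summed over all 19 Wnt genes of the mouse, the level was 15.03 ± 3.50 CPM per kb in 687g, 114 ± 4.84 in Epcam hi, 46.0 ± 0.288 in pB3 and 26.4 ± 2.63 in pB2 (SD, n = 2). In 687g the sum was spread over Wnt7a (33.2%), Wnt5a (32.2%) and Wnt4 (22.4%). In Epcam hi, Wnt7b and Wnt7a made up 48.6% and 47.7%, with levels of 55.7 ± 4.24 and 54.6 ± 0.389 CPM per kb that did not part beyond their spread. Wnt7b took 72.2% of the sum in pB3, followed by Wnt5a with 12.8% and Wnt7a with 8.27%.

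The pB2 line was the exception, since most of its ligand transcripts came from a gene outside the 5 members. Wnt5b, a relative of Wnt5a named here after its values were seen, held 84.2% and 77.2% of the ligand sum in the pB2 libraries. It was lower in Epcam hi and in pB3 than in pB2 (fitted log2 difference -7.99 ± 0.35 and -7.02 ± 0.32). As its level in pB2 chose it, these values are a description without a test. The 5 member ligands together made up 72.2% and 71.9% of the sum in 687g, 99.7% in each library of Epcam hi, 99.4% and 99.3% in pB3, and 14.3% and 21.5% in pB2. Of the 19 ligand genes, 8 reached 1 CPM in at least 1 line, and 3 had 0 counts in all libraries.

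**Figure D2:**
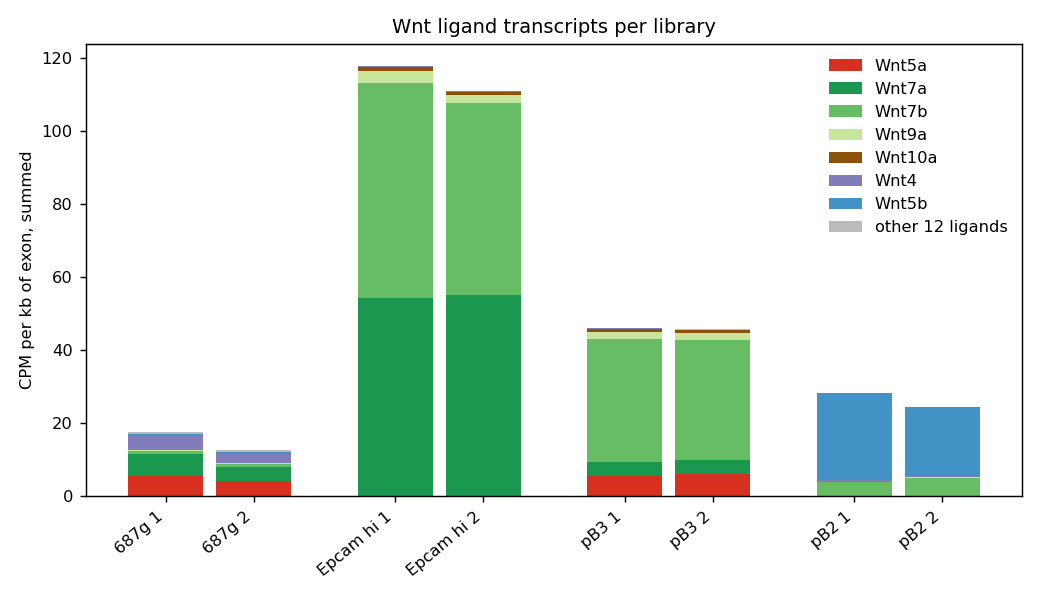
Summed level of the 19 Wnt ligand genes in CPM per kb of exon, 1 stacked bar per library, coloured by gene. Epcam hi has the tallest bars, split between Wnt7a and Wnt7b, pB3 is mostly Wnt7b with some Wnt5a, 687g has Wnt5a, Wnt7a and Wnt4, and pB2 is mostly Wnt5b.

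Among the secreted inhibitors, Notum was high in 687g only, of these 4 lines. It encodes the carboxylesterase that removes the lipid from Wnt proteins and lies on chromosome 11 from 120653788 to 120661175. Its level was 184 and 104 CPM in 687g, 0.141 and 0.0547 CPM in Epcam hi, 0.470 and 0.323 CPM in pB3, and 0.0740 and 0.159 CPM in pB2. The 687g libraries were themselves apart, replicate 1 above replicate 2, yet every other library had 7 counts or fewer. The level in 687g was 373-fold that in pB3 (counting interval 214 to 723), and 1600.3-fold that in Epcam hi (counting interval 547 to 7763), where the count was 3. Per kilobase, Notum reached 59.8 ± 23.3 CPM in 687g (SD, n = 2), against 15.03 ± 3.50 CPM for the sum of all ligands there.

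Sfrp1, a secreted protein with a Frizzled-like domain that binds Wnts, was highest in pB2. It lies on chromosome 8 from 23411502 to 23449632 and had 24.0 and 19.997 CPM in 687g, 3.09 and 1.20 CPM in Epcam hi, 51.5 and 51.6 CPM in pB3, and 191 and 196 CPM in pB2. No lines overlapped, and the order ran from pB2 through pB3 and 687g to Epcam hi. Epcam hi was 95.6-fold below pB2 (counting interval 75.02 to 124) and pB3 was 3.76-fold below pB2 (counting interval 3.56 to 3.98). With the spread between replicates, the fitted log2 fold change of pB3 over pB2 was -1.91 ± 0.25. The sum of the fibroblast markers was also highest in pB2, from Pdgfra, Col1a1 and Fap, while Dpt had 0 counts and Dcn at most 2, and their part in the level of Sfrp1 was not tested. Over the 8 libraries the log2 CPM of Sfrp1 and Wnt7a ran in opposite directions (Pearson's r of -0.93). This was the most negative value among all pairs of tested members, and describes libraries that come as 4 pairs of replicates.

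Dkk3, a member of the Dickkopf family whose place in Wnt signalling is debated, was barely detected. It lies on chromosome 7 from 112116017 to 112159057 and counted 13 and 5 reads in 687g, 0 in both Epcam hi and both pB3 libraries, and 1 and 0 in pB2. The level in 687g was at least 5.94-fold that in Epcam hi and at least 5.55-fold that in pB3, against the floor of 3 counts. At 0.530 ± 0.275 CPM in 687g (SD, n = 2) it stayed under the filter on low counts and was not tested.

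The classical readout Axin2, which encodes a scaffold of the complex that degrades beta-catenin and is induced in negative feedback, was near 0 everywhere. On chromosome 11 from 108920349 to 108950783, it counted 5 and 2 reads in 687g, 0 and 0 in Epcam hi, 1 and 0 in pB3, and 2 and 2 in pB2. The largest value was 0.279 CPM, in 687g replicate 1, and 3 counts in a single library correspond to between 0.159 and 0.222 CPM. The 687g and pB2 libraries overlapped. With 7 counts against 1, the ratio of 687g to pB3 had a counting interval of 0.831 to 292 and is not resolved at this depth. Epcam hi had the highest ligand sum of the 4 lines and 0 Axin2 counts, and no relation between the values was tested.

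Lef1, which encodes a DNA-binding partner of beta-catenin and is itself induced by it, was low and highest in pB3. It lies on chromosome 3 from 131110471 to 131224356 and had 0.223 and 0 CPM in 687g, 0.0703 and 0.109 CPM in Epcam hi, 2.15 and 2.39 CPM in pB3, and 0.370 and 0.530 CPM in pB2. The pB3 libraries stood apart from pB2. Those of pB2 lay above 687g and Epcam hi on few counts, and 687g and Epcam hi overlapped. From 15 counts against 3, pB2 was 5.02-fold above Epcam hi (counting interval 1.42 to 27.05). The fitted log2 fold change of Epcam hi over pB2 was -2.22 ± 0.90. In pB3 the level was 4.91-fold that in pB2 (counting interval 2.78 to 9.24). With 4 counts in 687g, the level there was 18.7-fold lower than in pB3 (counting interval 6.97 to 70.4). Lef1 overlaps 1 other annotated gene on its own strand, so some of its reads may have been left uncounted.

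Set against all genes, 8 of the 10 passed the filter on low counts and entered the fit, and Dkk3 and Axin2 did not. In 687g against Epcam hi, 3 of the 8 were called higher and 4 lower at an adjusted p under 0.05, where 18.4% and 18.0% of the 15890 genes tested were called. In 687g against pB3, 1 was called higher and 5 lower, beside 12.8% and 12.9% of all genes. In Epcam hi against pB2, 5 were called higher and 1 lower, beside 25.8% and 25.6%. In pB3 against pB2, 6 were called higher and 1 lower, beside 21.6% and 23.2%. Notum passed the filter through 687g alone, Lef1 through pB3 alone, and Wnt10a through Epcam hi and pB3 only. The direction of their calls between those lines and the others was therefore set by the filter. As these levels chose the genes, nothing is read from the counts, and comparisons that share a line share its libraries.

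The genes around the members on the chromosome did not enter the choice, and their median changes were small beside the member's in each case given here. Around Notum, 76 tested genes within 2 Mb had a median log2 fold change of 0.22 in 687g against Epcam hi and 0.10 in 687g against pB3, while Notum itself had 10.49 ± 0.46 and 8.48 ± 0.39. The same stretch of distal chromosome 11 was lower in Epcam hi and in pB3 than in pB2, with medians of -0.43 and -0.49. In Epcam hi 12 of the 76 were called higher and 33 lower, beside 25.8% and 25.6% of all genes, and in pB3 14 and 33, beside 21.6% and 23.2%. Around Wnt7a, 26 genes had a median of -0.39 in Epcam hi against pB2, where Wnt7a had 9.81 ± 0.35. The 19 genes near Wnt5a had a median of 0.42 in pB3 against pB2, beside a ratio of 745-fold for Wnt5a, and the 4 of them within 1 Mb had a median of 1.05. For Sfrp1, whose 31 neighbours had a higher median in Epcam hi than in pB2 (median 0.31, and 0.69 for the 14 within 1 Mb), the member went the other way, at -6.54 ± 0.33.

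**Figure D3:**
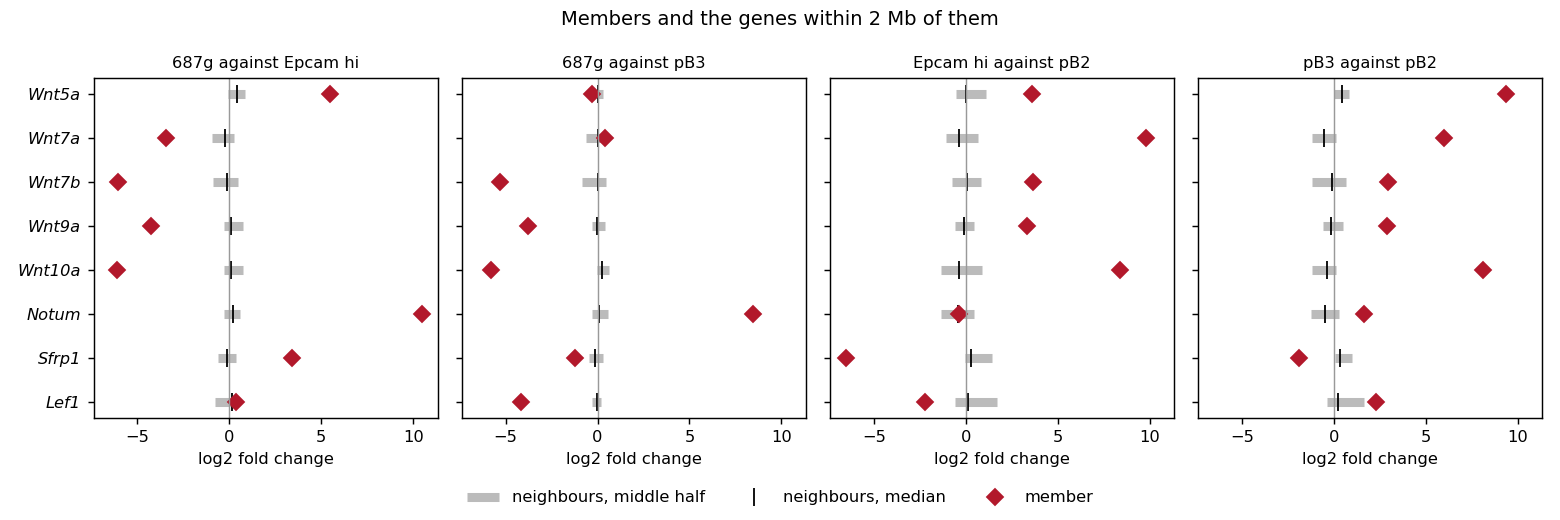
Log2 fold change of the 8 tested members (diamonds) in each comparison, with the median (tick) and middle 50% (grey bar) of the tested genes that start within 2 Mb of each. The diamonds lie outside the grey bars except for Wnt7a in 687g against pB3, Notum in Epcam hi against pB2 and Lef1 in 687g against Epcam hi, and Wnt5a in 687g against pB3 and Lef1 in pB3 against pB2 lie just beyond theirs. Fitted values of Wnt10a against pB2, which had 0 counts, depend on the prior count.

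Likeness of pattern was measured by Pearson's correlation of log2 CPM over the 8 libraries, among genes of at least 10 CPM in their highest line. With Wnt5a ran Nradd and S1pr1 (r of 0.997 and 0.994), which had 34.8 and 10.3 CPM in 687g, 1.92 and 0.586 in Epcam hi, 40.3 and 16.5 in pB3, and 0.391 and 0.0370 in pB2. With Wnt7a ran Inpp4b (0.997), with Wnt7b Sh2b1 and Atp11a (0.99 and 0.98), and with Wnt9a Rbm47 and Nhlrc2 (both 0.99). Cst6 and Fam107b were nearest to Wnt10a (both 0.99), Hif1a and Pde1b to Notum (both 0.99), Irx5 and Gm43672 to Sfrp1 (both 0.99), and Gata6 and Flrt2 to Lef1 (0.98 and 0.97). Likeness of shape is not likeness of size: Hif1a had 334 CPM in 687g and 109 in Epcam hi, while Pde1b had 29.0 and 0.0976 CPM. Wnt7b, Wnt9a and Wnt10a were alike among themselves, with r between 0.91 and 0.97. Such values are high for many genes when 8 libraries form 4 lines.

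Other genes of the pathway, 104 of them in 10 lists and 71 passing the filter, were tested in the fit across all genes. As the lists were drawn up with earlier results of these data known, their shares are a description beside those of all genes. Wnt11 passed the filter through 687g alone, Sp5 through Epcam hi alone and Ror2 through pB3 alone. Dkk2 passed it through 687g and pB3 only, with 0 counts in Epcam hi and pB2. The direction of their calls between those lines and the others was therefore set by the filter. In 687g against Epcam hi, 30 of the 71 rose and 11 fell, or 42.3% and 15.5%, beside 18.4% and 18.0% of all genes tested. Their median log2 fold change was 0.55, and that of all genes -0.03. In 687g against pB3, 19 rose and 8 fell (26.8% and 11.3%), beside 12.8% and 12.9% of all genes, with a median of 0.25 against 0.00 for all genes. Without pB3 replicate 1, pB3 replicate 2 or 687g replicate 1 the 19 became 11, 12 and 12, and without 687g replicate 2 the 11 genes that fell in 687g against Epcam hi became 7.

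Against pB2 the balance lay on the other side. Rspo1, Rspo3, Lgr5, Wif1 and the target gene Tnfrsf19 passed the filter through pB2 alone. The direction of their falls, which are counted here, was therefore set by the filter. In Epcam hi, 14 of the 71 rose and 35 fell (19.7% and 49.3%), beside 25.8% and 25.6% of all genes, with a median of -0.48 against 0.06. In pB3, 16 rose and 32 fell (22.5% and 45.1%), beside 21.6% and 23.2%, with a median of -0.37 against 0.02. Scaling by total counts moved the split of all calls in pB3 against pB2 from 3427 higher and 3688 lower to 2767 and 4590, shifted the median of all genes by -0.19, and left 13 pathway genes higher and 34 lower. The same scaling shifted the median of all genes by -0.12 in 687g against Epcam hi and by -0.11 in Epcam hi against pB2.

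**Figure D4:**
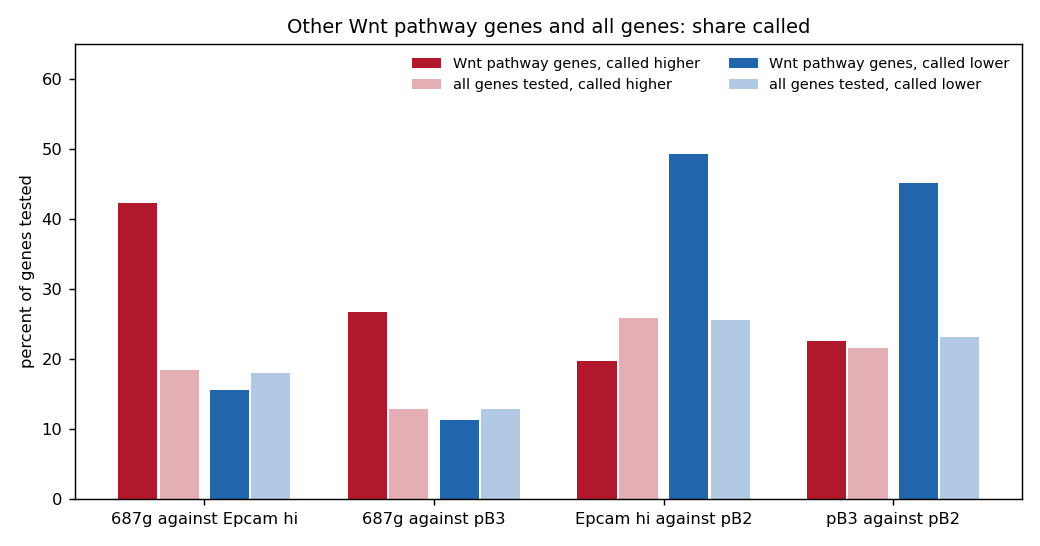
Percent of genes called higher (red) or lower (blue) at an adjusted p under 0.05 in each comparison, for the 71 tested pathway genes that are no members (dark) and for all 15890 genes tested (light). Dark red exceeds light red in both comparisons of 687g, and dark blue exceeds light blue in both comparisons with pB2. The pathway lists were drawn up with earlier results of these data known.

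Genes that make and release ligands were present in all 4 lines. Wls, the carrier that all Wnts need, had 353 ± 2.87 CPM in 687g, 120 ± 15.8 in Epcam hi, 342 ± 17.003 in pB3 and 240 ± 11.7 in pB2 (SD, n = 2). It was higher in 687g than in Epcam hi (1.55 ± 0.17, adjusted p = 8.36e-06, edgeR quasi-likelihood test here and below unless stated). It fell in Epcam hi relative to pB2 (-0.999 ± 0.17, adjusted p = 2.51e-04), and both were the reverse of the ligand sums. Its rise in pB3 over pB2 (0.51 ± 0.17, adjusted p = 0.025) was lost with total counts (adjusted p = 0.147) and without any single library of that pair (adjusted p from 0.0833 to 0.2001). Porcn rose in Epcam hi and in pB3 over pB2, by 1.94 ± 0.37 and 2.09 ± 0.36 (adjusted p = 5.33e-04 and 3.27e-04), and was not called in 687g against Epcam hi or against pB3.

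Of 13 other genes for secreted or surface inhibitors, 4 passed the filter. In 687g, 3 of them rose over Epcam hi, and 1 rose and 1 fell relative to pB3. Against pB2, 1 rose and 2 fell in Epcam hi, while 3 rose and 1 fell in pB3. Of all genes, 18.4% rose and 18.0% fell in 687g against Epcam hi, and 12.8% and 12.9% in 687g against pB3. Against pB2 the shares were 25.8% and 25.6% in Epcam hi and 21.6% and 23.2% in pB3. Nothing is read from counts in so short a list, and Wif1 passed the filter through pB2 alone and Dkk2 through 687g and pB3 only. Trabd2b, whose product Tiki2 is a membrane protease that clips Wnt proteins, had 40.7 and 20.9 CPM in 687g, 1.55 and 2.62 in Epcam hi, 4.90 and 6.02 in pB3, and 0.370 and 0.583 in pB2. It rose in 687g relative to pB3 (2.50 ± 0.34, adjusted p = 7.75e-05). Wif1, which binds ligands outside the cell, had 0 counts in 687g and Epcam hi, 1 count in each pB3 library, and 19.5 and 20.02 CPM in pB2. It was at least 214.5-fold lower in Epcam hi than in pB2, and 300.2-fold lower in pB3 than in pB2 (counting interval 82.8 to 2484). Wif1 thus shared its peak in pB2 with Sfrp1.

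The R-spondins are secreted proteins that raise Wnt receptor levels through Lgr receptors and the ligases Rnf43 and Znrf3. Rspo1 and Rspo3 were found in pB2, while Rspo2 had at most 2 counts in any library and Rspo4 had 0 counts. Of the 7 genes of this list that passed the filter, 5 fell and 1 rose in Epcam hi relative to pB2, and so did 5 and 1 in pB3. Of all genes, 25.6% fell and 25.8% rose in Epcam hi, and 23.2% and 21.6% in pB3. Rspo1, Rspo3 and Lgr5 passed the filter through pB2 alone, which set the direction of their falls. Rspo1 and Rspo3 had at most 3 counts in a library of 687g, Epcam hi or pB3, against 17.9 ± 0.428 and 15.2 ± 2.07 CPM in pB2 (SD, n = 2). The sum of the fibroblast markers was also highest in pB2, as was Erg, and their part was not tested. In Epcam hi they were at least 193-fold and at least 168-fold lower than in pB2, and Rspo1 was at least 180.5-fold lower in pB3. Rspo3 was 469-fold lower in pB3 than in pB2 (counting interval 83.8 to 18573), where the fitted log2 difference of -8.55 became -10.95 without pB3 replicate 1 and -7.67 without pB3 replicate 2. Rnf43 fell in Epcam hi and in pB3 relative to pB2 (fitted log2 difference -4.45 ± 0.46 and -4.44 ± 0.46, adjusted p = 2.24e-06 and 2.79e-06). It rose in 687g over pB3 (2.05 ± 0.48, adjusted p = 0.00592), a call lost without pB3 replicate 1 or 687g replicate 1 (adjusted p = 0.0875 and 0.0556). Lgr6 went the other way, with 74.1 ± 0.251 CPM in Epcam hi and 115 ± 1.49 in pB3, against 5.08 ± 0.601 in pB2 (adjusted p = 2.32e-09 and 8.66e-10). Znrf3 was not called in any of the 4 comparisons (log2 fold changes from -0.08 to 0.39), though it was in 687g against Epcam hi without Epcam hi replicate 2 (0.73, adjusted p = 0.0323).

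Among 12 Frizzled and co-receptor genes tested, 4 rose and 1 fell in 687g relative to Epcam hi, beside 18.4% and 18.0% of all genes. Relative to pB3, 5 rose and 0 fell, beside 12.8% and 12.9%. In Epcam hi 2 rose and 7 fell relative to pB2, beside 25.8% and 25.6%. In pB3 0 rose and 6 fell, beside 21.6% and 23.2%. The same shares of all genes stand beside the next list. Of 11 genes tested for beta-catenin-independent receptors and planar polarity, 1 rose and 4 fell in 687g relative to Epcam hi, and 0 rose and 3 fell relative to pB3. Relative to pB2, 3 of them rose and 5 fell in Epcam hi, and 2 rose and 5 fell in pB3. Ror2, a receptor of Wnt5a that acts without beta-catenin, had 0.112 and 0.0671 CPM in 687g, 0.0703 and 0 CPM in Epcam hi, 10.1 and 11.3 CPM in pB3, and 0 counts in pB2. It was at least 116-fold higher in pB3 than in pB2, and 117-fold lower in 687g than in pB3 (counting interval 39.8 to 571). Its relative Ror1 was lower in 687g than in Epcam hi (-3.57 ± 0.39, adjusted p = 6.17e-06). Fzd7, a Frizzled receptor, stood at 34.6 ± 1.51 CPM in 687g, and fell to 13.01 ± 2.01 CPM in Epcam hi and 6.82 ± 0.319 in pB3, against 119 ± 20.04 in pB2 (SD, n = 2; adjusted p = 2.17e-08 and 3.85e-09). Fzd2 was low in Epcam hi alone, at 1.24 ± 0.132 CPM. The other lines had 18.3 ± 4.37 in 687g, 15.4 ± 0.388 in pB3 and 19.1 ± 2.47 in pB2 (SD, n = 2). It was higher in 687g than in Epcam hi by 3.89 ± 0.28 (adjusted p = 1.21e-07), and was not called in 687g against pB3 (0.25 ± 0.23, adjusted p = 0.474). The co-receptor Lrp6 was not called in any of the 4 comparisons, with log2 fold changes from -0.01 to 0.56, and passed in 687g against Epcam hi without 687g replicate 2 (0.74, adjusted p = 0.0385) and without Epcam hi replicate 2 (0.76, adjusted p = 0.0279), and with DESeq2 or no filter on low counts (adjusted p = 0.0434 and 0.0278). In pB3 against pB2 it passed when only those 4 libraries were fitted (0.34, adjusted p = 0.047).

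**Figure D5:**
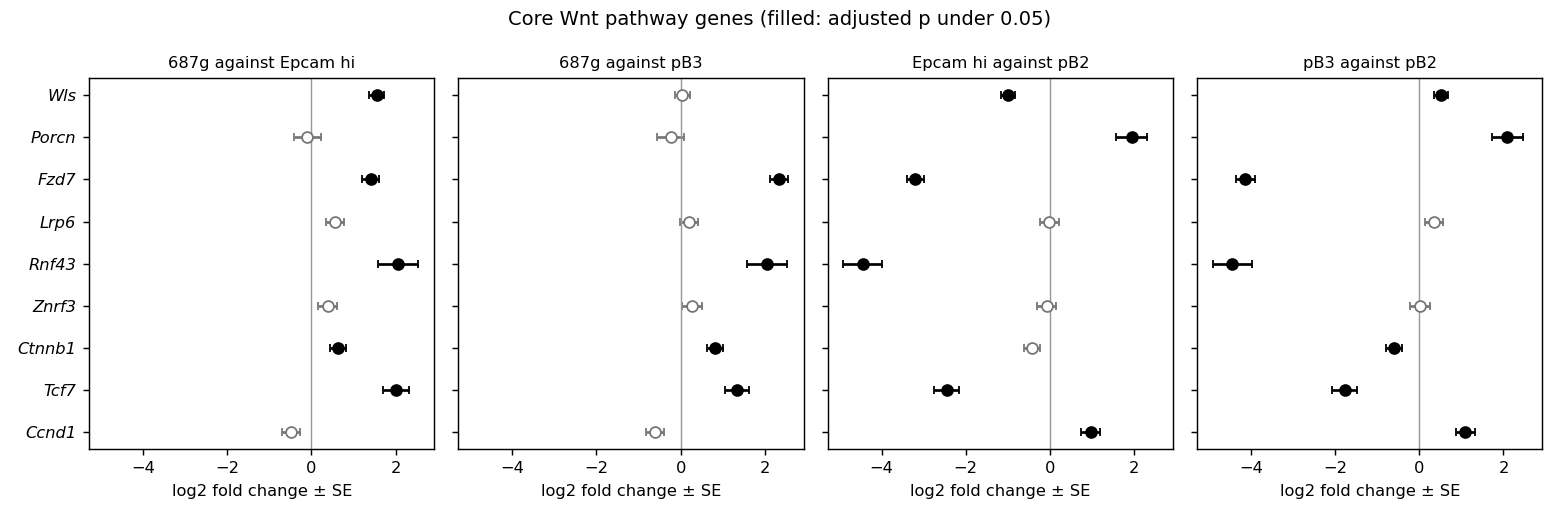
Log2 fold change with its standard error for 9 pathway genes in the 4 comparisons, filled where the adjusted p was under 0.05. Fzd7, Rnf43 and Tcf7 lie left of 0 against pB2 and right of 0 in the comparisons of 687g, whereas Lrp6 and Znrf3 are open in all panels.

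Of 15 genes for transducers and the destruction complex, 7 rose and 1 fell in 687g relative to Epcam hi, beside 18.4% and 18.0% of all genes. Relative to pB3, 4 rose and 1 fell, beside 12.8% and 12.9%. In Epcam hi 1 rose and 5 fell relative to pB2, beside 25.8% and 25.6%. In pB3 3 rose and 3 fell, beside 21.6% and 23.2%. Ctnnb1, which encodes beta-catenin, was abundant in every line, at 925 ± 198 CPM in 687g, 597 ± 40.1 in Epcam hi, 525 ± 36.1 in pB3 and 801 ± 52.5 in pB2 (SD, n = 2). It rose in 687g over pB3 (0.82 ± 0.19, adjusted p = 0.00553) and over Epcam hi (0.63 ± 0.19, adjusted p = 0.0182), and fell in pB3 relative to pB2 (-0.61 ± 0.19, adjusted p = 0.0175). Each of these calls was lost on leaving out single libraries, with adjusted p of 0.0929 without pB3 replicate 1 for the first, 0.103 without 687g replicate 1 and 0.055 without Epcam hi replicate 2 (0.0809 with only those 4 libraries fitted) for the second, and 0.115, 0.168 and 0.0807 without pB2 replicate 1, pB3 replicate 1 or pB3 replicate 2 for the third. In Epcam hi against pB2 it was not called (-0.42, adjusted p = 0.0757) but was with total counts and with DESeq2 (adjusted p = 0.0261 and 0.0359). Among 7 genes for TCF factors and Groucho co-repressors, 6 rose and 0 fell in 687g relative to Epcam hi. Relative to pB3, 2 rose, 0 fell and 5 were not called. In Epcam hi and in pB3, 5 fell and 1 rose relative to pB2. These stand beside the same shares of all genes, and nothing is read from counts in so short a list. Tcf7, a TCF factor related to Lef1, rose in 687g over Epcam hi by 2.01 ± 0.30 (adjusted p = 1.15e-04) and fell in Epcam hi and in pB3 relative to pB2 (fitted log2 difference -2.45 ± 0.30 and -1.77 ± 0.29, adjusted p = 1.14e-05 and 1.70e-04). It rose in 687g over pB3 as well (1.34 ± 0.29, adjusted p = 0.00319), a call lost without pB3 replicate 2 (adjusted p = 0.0587). Tle2, a co-repressor of TCF factors, rose in 687g over Epcam hi by 4.62 ± 0.45 (adjusted p = 2.14e-06, and 5.71 without Epcam hi replicate 2) and over pB3 by 2.72 ± 0.38 (adjusted p = 1.16e-04).

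Of 7 other target genes that passed the filter, 1 rose and 4 fell in 687g relative to Epcam hi, and 2 rose and 1 fell relative to pB3. Relative to pB2, 4 rose and 3 fell in Epcam hi, and 3 rose and 3 fell in pB3. Of all genes, 18.4% and 18.0%, 12.8% and 12.9%, 25.8% and 25.6%, and 21.6% and 23.2% rose and fell in the same order. Sp5 passed the filter through Epcam hi alone and Tnfrsf19 through pB2 alone, and nothing is read from counts in so short a list. Nkd1, a feedback inhibitor, had 2 counts in pB2 replicate 2 and 0 in all other libraries, as sparse as Axin2. Sp5, a transcription factor gene induced by beta-catenin, had 0 counts in 687g, 9.41 and 6.07 CPM in Epcam hi, 0 and 2 counts in pB3, and 0 in pB2. It was at least 82.5-fold lower in 687g than in Epcam hi and at least 81.3-fold higher in Epcam hi than in pB2, in the line with 0 counts of Axin2. Ccnd1, which encodes cyclin D1, rose in Epcam hi and pB3 over pB2 by 0.97 ± 0.22 and 1.10 ± 0.22 (adjusted p = 0.0021 and 9.39e-04). Between 687g and pB3 it was not called (-0.61 ± 0.22, adjusted p = 0.0523), but passed without 687g replicate 1 (-1.01, adjusted p = 0.00267), and with total counts, DESeq2, no filter or the replicate block (adjusted p from 0.0112 to 0.0393). In 687g against Epcam hi it was likewise not called (-0.48, adjusted p = 0.0995), but passed with total counts (adjusted p = 0.0428) and without 687g replicate 1 (adjusted p = 0.00372). Cd44, an adhesion receptor that many other pathways also control, rose by 5.32 ± 0.22 in Epcam hi and by 4.75 ± 0.22 in pB3 over pB2 (adjusted p = 3.72e-10 and 9.81e-10).

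Wnt4, a ligand induced by progesterone in the mammary gland, and the glypicans, cell-surface proteoglycans that bind Wnts, completed the genes with the largest changes. Wnt4 had 17.2 and 11.3 CPM in 687g, 0.703 and 0.547 CPM in Epcam hi, 0.201 and 0 CPM in pB3, and 1.70 and 1.22 CPM in pB2. It rose in 687g over Epcam hi by 4.51 ± 0.48 (adjusted p = 4.95e-06), and was 147-fold higher in 687g than in pB3 (counting interval 49.9 to 714), where the fitted log2 difference of 7.06 became 10.85 without pB3 replicate 1 and 6.09 without pB3 replicate 2. Gpc4 fell in 687g relative to Epcam hi and to pB3 (fitted log2 difference -3.13 ± 0.28 and -2.36 ± 0.27, adjusted p = 7.43e-07 and 2.10e-05). Gpc1 was high in pB3 alone, at 122 ± 0.627 CPM, against 21.02 ± 3.63 in 687g (adjusted p = 1.99e-06). It had 27.8 ± 8.53 CPM in Epcam hi and 25.1 ± 2.07 in pB2 (SD, n = 2). In 687g against Epcam hi it was not called (-0.41 ± 0.22, adjusted p = 0.178).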

How the data were processed

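Messenger RNA of 8 libraries, 2 for each of 4 cell lines, was sequenced. Per the submitters' processing notes and the series' design text, the reads, single-end, were aligned to GRCm38 with STAR 2.6.1a and Ensembl annotation 91, and counted per gene and strand with featureCounts. The authors deposited raw counts for 53379 genes. How multi-mapping reads were handled is not given in the sources used here.

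Symbols, positions and exon lengths came from GENCODE M21 on the same build, and 105 gene IDs had no symbol there. Tests used edgeR 4.0.16 (R 4.3.3) with TMM factors, filterByExpr by line (15890 genes kept), 1 quasi-likelihood fit of all libraries, and Benjamini-Hochberg adjustment over all genes with a threshold of 0.05, two-sided. CPM use TMM-scaled totals. Where a line had 0 counts a fold is a bound against 3 counts over its 2 libraries. A counting interval, where printed, is the exact 95% binomial interval for the pooled counts of the 2 lines compared, scaled by library size. Intervals and floors cover counting error only. DESeq2 1.42.0 was an alternative. The scripts were tested on simulated data.

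The members and gene lists were chosen with earlier results of these data known. Named pathway genes were a fixed panel (Wls, Porcn, Fzd7, Lrp6, Ror2, Rnf43, Znrf3, Ctnnb1, Tcf7, Nkd1, Ccnd1) and, per comparison, the 3 called genes with the largest change each way among those with 5 CPM or more in the higher line. For likeness, the 2 genes with the highest correlation were named, of which 1 is not reported here.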

Additional observations from a re-analysis of the deposited data

How the results depend on the processing

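With 2 libraries per line, depth limits what can be said of Axin2, Dkk3, Lef1 in 687g and Epcam hi, and every gene at 3 counts or fewer in a line. The counts of calls stayed within 1.5 times their main values under DESeq2 size factors, total counts, DESeq2's own test, no filter on low counts, a fit of only the 4 libraries compared and a replicate block. Leaving out 1 library in turn moved pathway genes called lower in 687g against Epcam hi between 7 and 11, those called higher in 687g against pB3 between 11 and 18, and all genes in 687g against pB3 between 1123 and 1972 higher and between 1293 and 1988 lower, the low ends being without pB3 replicate 2 (1123 and 1293) and replicate 1 (1144 and 1357). The cause was not tested. These fits leave 1 library in a line, which is assumed to vary like the others.

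No direction of a called named gene reversed. Among values of named pathway genes under the alternatives, 590 kept their side of the threshold, 15 lost and 15 gained a call, and all of those changes concerned Ctnnb1, Wls, Rnf43, Tcf7, Lrp6, Znrf3 or Ccnd1. Of the members' ratios, 189 moved by less than the spread between replicates and 51 by more, and of the medians of the chromosomal neighbours (within 1 Mb in place of 2 Mb), 20 and 20. Deviations of same-numbered libraries correlated between -0.10 and 0.17 over the 6 pairs of lines, highest for Epcam hi with pB2. With 2 libraries per line this cannot show whether same-numbered libraries were prepared together. With the replicate block, 30 pathway genes were called higher and 10 lower in 687g against Epcam hi, 18 and 10 in 687g against pB3, 15 and 35 in Epcam hi against pB2, and 15 and 32 in pB3 against pB2. The block changed 1 call among the named genes, that of Ccnd1 in 687g against pB3 (-0.64, adjusted p = 0.0339).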

Other observations

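Some pathway genes outside the rule for named genes, picked after their values were seen, were high in pB2. Nkd2, which encodes a feedback inhibitor of the pathway, had 2.62 and 2.55 CPM in 687g, 15.5 and 19.1 in Epcam hi, 0.671 and 0.194 in pB3, and 95.2 and 100 in pB2. Bambi, a pseudoreceptor of the TGF-beta family that beta-catenin can induce, had 1.17 and 2.89 CPM in 687g, 0.141 and 0.656 in Epcam hi, 4.70 and 3.36 in pB3, and 71.0 and 69.1 in pB2. The planar polarity cadherin Celsr1 had 0.167 and 0.470 CPM in 687g, 0.843 and 0.383 in Epcam hi, 0.806 and 0.906 in pB3, and 27.2 and 44.9 in pB2. In each case both pB2 libraries lay above all others.

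Apcdd1, which encodes a membrane inhibitor of Wnt signalling, had 20.1 and 13.02 CPM in 687g, 0.703 and 1.48 in Epcam hi, 40.4 and 44.2 in pB3, and 3.99 and 3.66 in pB2. Its high lines were those with high Wnt5a. Dkk2, a secreted antagonist of the co-receptors, had 4.91 and 2.89 CPM in 687g, 4.36 and 5.43 in pB3, and 0 counts in Epcam hi and pB2.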
